A study of Mus musculus with 72 samples.

Results

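The glutathione, peroxiredoxin and thioredoxin genes of the mouse heart were taken as one module of 52 protein-coding genes among the 24237 genes of the count table. A gene was a member if its symbol named a glutathione S-transferase (the Gsta, Gstm, Gstp, Gstt, Gstk, Gsto, Gstz and Mgst series), a glutathione peroxidase (Gpx) or a peroxiredoxin (Prdx) with a number, or if it was Txn1, Txn2, Txnrd1, Txnrd2, Gclc, Gclm, Gsr, Gss, Hmox1, Sod1, Sod2 or Cat. By role these were 22 cytosolic and mitochondrial transferases, 3 microsomal transferases, 8 glutathione peroxidases, 7 peroxiredoxins, 3 genes of glutathione synthesis (Gclc, Gclm and Gss), the glutathione reductase Gsr, 2 thioredoxins, 2 thioredoxin reductases, 2 superoxide dismutases, catalase and the heme oxygenase Hmox1. The choice used gene names and no measured value.

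The RNA came from hearts of C57BL/6J mice dissected into right atrium (RA), left atrium (LA) and ventricles (V), and was sequenced as polyA-selected RNA. The 72 libraries fell into 24 groups of 3, one for each of 3 compartments, 2 sexes and 4 conditions. The conditions were naive Ahr+/+ mice, unexposed Ahr-/- mice, a germline knockout of the aryl hydrocarbon receptor, and Ahr+/+ mice whose mother had received TCDD (dioxin, a potent ligand of that receptor) by gavage in pregnancy, at 0.1 µg/kg (low dose) or 1 µg/kg (high dose). By the study's methods, Ahr+/+ dams not given TCDD received its corn oil vehicle by gavage, while Ahr-/- dams were not treated. The Ahr-/- and naive groups therefore differed in gavage and vehicle as well as genotype. The offspring were 9 months old by the labels and 10 months old by the study's methods. The labels name TCDD for every sample, so the groups here follow the sample titles. Each sex and condition had 3 hearts, so the RA, LA and V libraries of a group came from the same animals, although the labels do not say which belong together.

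These genes handle peroxides and reactive metabolites. Superoxide dismutases turn superoxide into hydrogen peroxide, which catalase, glutathione peroxidases and peroxiredoxins then reduce, the peroxidases drawing on glutathione and the peroxiredoxins mostly on thioredoxin. Glutamate-cysteine ligase (its catalytic subunit Gclc and modifier subunit Gclm) and glutathione synthetase (Gss) make glutathione, glutathione reductase and the thioredoxin reductases recycle the oxidised forms, and glutathione S-transferases join glutathione to electrophiles. Several of these genes are known targets of the transcription factor NRF2, which binds antioxidant response elements, and some transferases are known to respond to the aryl hydrocarbon receptor, which binds xenobiotic response elements in liver and other tissues. Heart muscle is rich in mitochondria, where Sod2, Prdx3, Txn2 and Txnrd2 act.

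Library totals ran from 11873417 to 28789382 counts with a median of 19231739, and levels are given as CPM, the count scaled to a library total of 1000000. A count of 0 allowed a level of up to 0.253 CPM at the lowest total and 0.104 CPM at the highest, counting error only. The targeted gene Ahr was at 2.00 to 9.23 CPM in the 18 libraries labelled Ahr-/- (median 5.05 CPM) and at 4.68 to 30.8 CPM in the other 54 (median 11.7 CPM), and these ranges overlapped in RA and V and not in LA. Labels and markers disagreed in 17 libraries: the sex-linked genes went against the labelled sex in 8, the atrial myosin light chain Myl4 against the labelled compartment in 13 (8 atrial and 5 ventricular, at a limit of 300 CPM), and both in 4. Of these libraries 12 belonged to the second library series, numbered 49 to 72, and 5 to the first, numbered 1 to 48. The 12 followed the same pattern in every condition. Those labelled RA of females (50, 56, 62 and 68) had male sex-linked genes and atrial Myl4 levels. Those labelled LA of males (51, 57, 63 and 69) had male sex-linked genes and ventricular Myl4 levels. Those labelled V of males (53, 59, 65 and 71) had female sex-linked genes and atrial Myl4 levels. Whether they were exchanged was not tested. The ventricular libraries of naive and of high-dose females held none of the 17 at this limit. Naive female library 35 nevertheless had Myl4 at 193.4 CPM, against 4.23 and 3.14 CPM in naive female libraries 36 and 54. A pair of atrial libraries, 15 and 21, carried lung markers. Nothing in the sources used here says that the 3 libraries of a group were free of shared preparation steps, so the p-values measure the spread between these libraries.

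In the 6 ventricular libraries labelled naive the members spanned a wide range of levels, compared per kilobase of coding length. The highest was Sod2, the mitochondrial superoxide dismutase, at 1350 ± 367 CPM per kb (SD, n = 6). The secreted glutathione peroxidase Gpx3 followed at 605 ± 604 CPM per kb, a mean that fell to 368 CPM per kb without the 1 naive male library that carried atrial Myl4 (n = 5). The cytosolic peroxiredoxin Prdx1 was at 586 ± 148, the lipid peroxide reductase Gpx4 at 447 ± 78.2, Prdx6 at 409 ± 71.8 and the cytosolic superoxide dismutase Sod1 at 404 ± 29.5 CPM per kb, and these neighbours did not differ beyond their spread. Prdx2 (350 ± 55.1), Prdx3 (344 ± 73.6), the mitochondrial thioredoxin Txn2 (313 ± 49.9) and Prdx5 (209 ± 45.9 CPM per kb) completed the 10 highest. On the same scale Gclm was at 36.5 ± 8.73, Gclc at 13.6 ± 2.31 and Hmox1 at 6.76 ± 2.28 CPM per kb. Gpx2, Gpx5, Gpx6, Gstp3, Gstt4, Prdx6b and Mgst2 were too low to be tested in the ventricles, which left 45 tested members.

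Of the 18 comparisons with naive mice, that of the ventricles of high-dose females held all called members. In each of the other 17, at most 3 of all genes tested were called. With edgeR's quasi-likelihood test and Benjamini-Hochberg adjustment over all genes, 21 of the 45 tested members passed an adjusted p of 0.05, 12 higher and 9 lower after high-dose TCDD, while 23.7% of all 14006 genes tested passed (12.2% higher and 11.4% lower). The median log2 fold change was -0.13 over the members and 0.01 over all genes. For 22 members, 11 in each direction, the values of the 3 naive and 3 high-dose libraries were separated, as they were for 36.8% of all genes (11.7% higher and 25.1% lower). The calls ran in both directions within the larger roles and glutathione synthesis. Among glutathione peroxidases 2 rose and 1 fell, among peroxiredoxins 1 rose and 3 fell, and in glutathione synthesis 1 rose and 2 fell. Among the 20 tested cytosolic and mitochondrial transferases 6 rose and 2 fell. Of the other roles, 1 superoxide dismutase and 1 thioredoxin rose, catalase fell, and the rest held no call.

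Members that rose included Gpx1, Txn2, Prdx5, Sod1 and Gpx4. Gpx1, the main cytosolic and mitochondrial glutathione peroxidase, was at 59.9, 56.1 and 39.2 CPM in the naive female ventricles and at 89.1, 100.6 and 90.4 CPM after the high dose. The groups did not overlap, and the log2 fold change was 1.05 ± 0.14 (SE, n = 3 per group, edgeR adjusted p = 0.000706). Txn2, which supplies electrons to the mitochondrial peroxiredoxin, was at 159.5, 178.4 and 152.9 CPM against 308.2, 248.7 and 263.4 CPM, a log2 fold change of 0.92 ± 0.14 (edgeR adjusted p = 0.00107). Each high-dose library lay above each naive library for Txn2. Sod1 was at 179.8, 175.7 and 172.7 CPM in naive and at 308.2, 260.4 and 289.3 CPM in high-dose libraries, without overlap and with the narrowest naive spread of the 5 (log2 fold change 0.89 ± 0.14, edgeR adjusted p = 0.00129). Prdx5, a peroxiredoxin of mitochondria, peroxisomes and cytosol, went from 130.4, 139.4 and 140.0 CPM to 238.3, 212.8 and 249.9 CPM, a log2 fold change of 0.96 ± 0.15 (edgeR adjusted p = 0.00149). Gpx4, which reduces peroxides inside membranes, was 0.83 ± 0.14 higher on the log2 scale (edgeR adjusted p = 0.00179), with naive libraries at 269.4 to 310.7 CPM and high-dose libraries at 430.0 to 477.3 CPM.

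**Figure D1:**
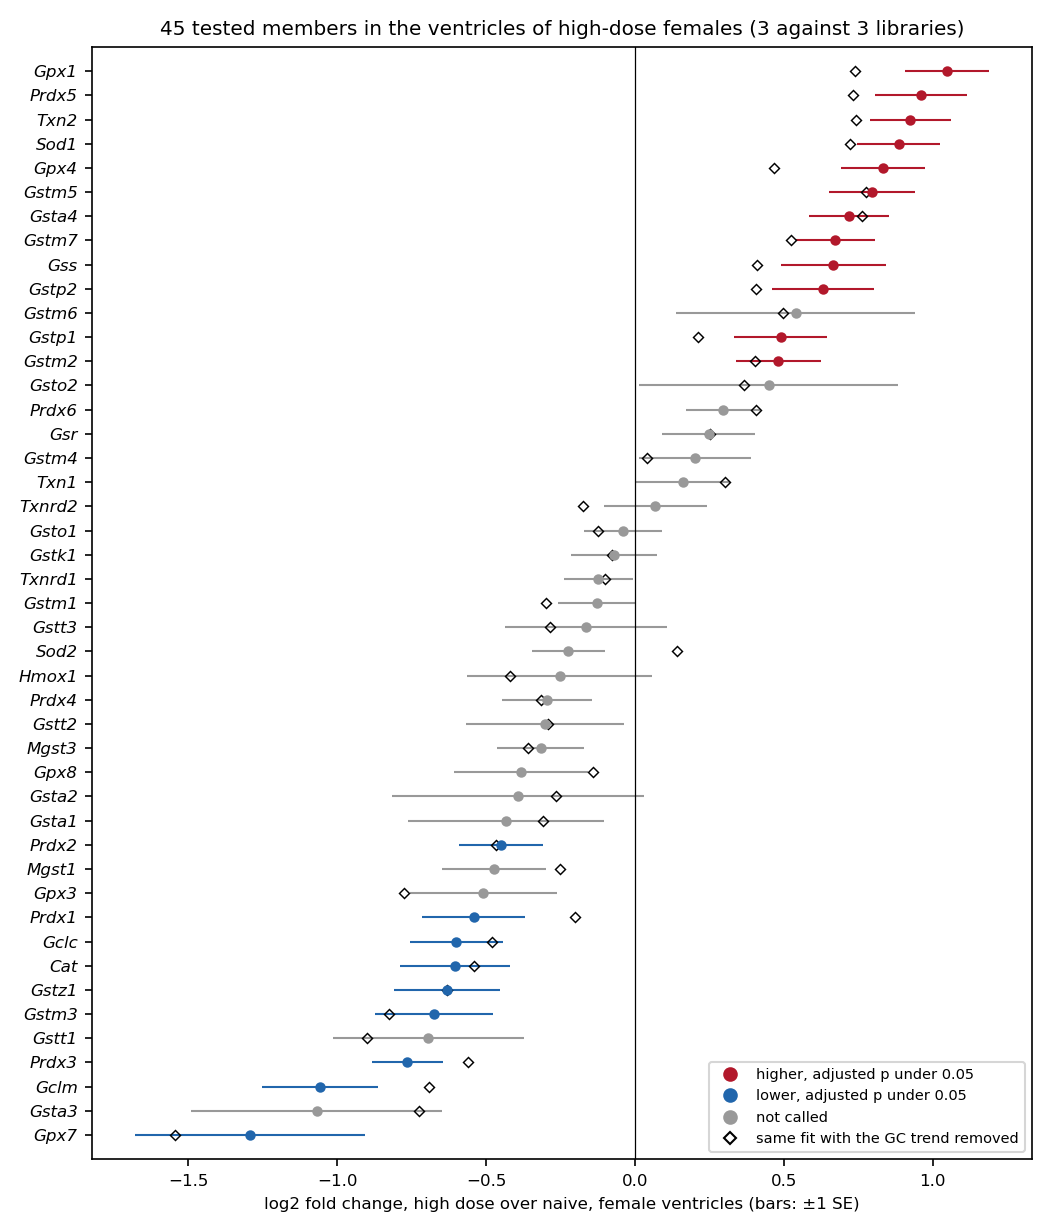
Log2 fold change (x axis, high-dose against naive ventricles of females, n = 3 libraries per group) of each of the 45 tested members (y axis), with bars of 1 standard error and the called members marked. Of the 21 called members 12 lie right of 0 and 9 left of it, from Gpx1 at 1.05 to Gpx7 at -1.29.

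The 9 members that fell included both subunits of glutamate-cysteine ligase, the rate-limiting enzyme of glutathione synthesis. Gclm was at 39.4, 30.6 and 25.1 CPM in naive and at 17.8, 14.2 and 8.70 CPM in high-dose libraries, and the groups did not overlap (log2 fold change -1.06 ± 0.20, edgeR adjusted p = 0.00285). Gclc was at 26.9, 21.6 and 21.8 CPM against 15.4, 13.7 and 11.9 CPM (log2 fold change -0.60 ± 0.16, edgeR adjusted p = 0.0153). Gss, the enzyme of the last step of glutathione synthesis, moved the other way, from 11.9, 10.8 and 9.48 CPM to 14.1, 15.4 and 15.1 CPM (log2 fold change 0.67 ± 0.18, edgeR adjusted p = 0.0169).

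The mitochondrial peroxiredoxin Prdx3 also fell, while Txn2, its electron donor, rose. Prdx3 was at 326.8, 312.4 and 290.9 CPM in the naive and at 162.8, 193.6 and 131.7 CPM in the high-dose libraries, a log2 fold change of -0.76 ± 0.12 (edgeR adjusted p = 0.00129). Cat, the peroxisomal catalase, was at 314.8, 327.4 and 291.2 CPM against 178.9, 263.9 and 113.9 CPM (log2 fold change -0.60 ± 0.18, edgeR adjusted p = 0.0339). The groups did not overlap for either gene, and the high-dose libraries spread more widely than the naive ones for Cat. The cytosolic peroxiredoxins Prdx2 (log2 fold change -0.45 ± 0.14, edgeR adjusted p = 0.0350) and Prdx1 (-0.54 ± 0.17, adjusted p = 0.0394) and the endoplasmic reticulum peroxidase Gpx7 (-1.29 ± 0.39, adjusted p = 0.0287) fell as well, Gpx7 from a low level of 3.03 to 4.19 CPM to 0.966 to 2.15 CPM.

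Among the transferases, Gstm5 (log2 fold change 0.80 ± 0.15, edgeR adjusted p = 0.00265), Gsta4, which conjugates the lipid peroxidation product 4-hydroxynonenal (0.72 ± 0.13, adjusted p = 0.00305), Gstm7 (0.67 ± 0.13), Gstp2 (0.63 ± 0.17), Gstp1 (0.49 ± 0.16) and Gstm2 (0.48 ± 0.14) rose. Gsta4 stood at 41.5 to 48.4 CPM in the naive and 50.9 to 79.7 CPM in the high-dose libraries, without overlap. For Gstp1 the groups touched, with a highest naive library at 91.70 and a lowest high-dose library at 91.71 CPM, and for Gstm2 they overlapped. Gstz1, an enzyme of tyrosine breakdown (-0.63 ± 0.18, edgeR adjusted p = 0.0230), and Gstm3 (-0.68 ± 0.20, adjusted p = 0.0264) fell. The Gstm, Gsta and Gstp genes are close copies of each other and the sources used here do not state how reads matching several copies were counted, so the split of counts within these families is uncertain.

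Several genes best known as stress-induced targets did not pass the test in these ventricles. Hmox1, the inducible heme oxygenase, was at 7.87, 6.78 and 3.03 CPM in naive and 4.17, 3.88 and 4.57 CPM in high-dose libraries (log2 fold change -0.25 ± 0.31, edgeR adjusted p = 0.591). The thioredoxin reductases Txnrd1 (-0.12 ± 0.12, edgeR adjusted p = 0.469) and Txnrd2 (0.07 ± 0.17, adjusted p = 0.813) and the mitochondrial superoxide dismutase Sod2 (-0.22 ± 0.12, adjusted p = 0.202) also missed the threshold. The alpha-class transferases Gsta1 (-0.43 ± 0.33, edgeR adjusted p = 0.365), Gsta2 (-0.39 ± 0.42, adjusted p = 0.534) and Gsta3 (-1.07 ± 0.42, adjusted p = 0.0956) did likewise, and the naive libraries themselves ran from 3.69 to 15.2 CPM for Gsta3.

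Every one of the 21 called members kept its direction in all alternatives tried, but the count of calls moved. With all 4 female ventricular groups in 1 fit 8 members were called (4.96% of all genes), all higher (Gpx1, Sod1, Txn2, Prdx5, Gstm5, Gpx4, Gsta4 and Gstm7), scaling by library size alone gave 7 higher and 9 lower (17.0% of all genes) with a median of -0.17 (log2) over all genes, and leaving out naive library 35 left 10 called members (10.9% of all genes). Without naive library 36 there were 12 (12.9%), and without high-dose library 66 there were 12 (13.6%). Transcript GC content moved with the comparison: across 13340 genes the log2 fold change correlated with GC (Spearman's rho 0.522, across genes, which share the same 6 libraries). The median log2 fold change went from -0.40 in the lowest to 0.36 in the highest quintile of GC. From the lowest to the highest quintile 5, 7, 16, 15 and 2 members were tested. Called higher were 0, 0, 3, 7 and 2 of them, and called lower 2, 2, 3, 2 and 0. After removal of the GC trend from each library 15 members were called (9 higher and 6 lower, against 13.2% of all genes), of which 14 were among the 21, and Gpx1 (0.74), Txn2 (0.74), Prdx3 (-0.56) and Gclm (-0.69) were among them.

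Markers of heart muscle moved with the same groups. The summed level of 5 cardiomyocyte markers was 44890 to 47500 CPM in naive and 62960 to 79830 CPM in high-dose female ventricles, 4 of the 5 being higher and 1 lower without overlap, and none was at 0. The sum of 5 fibroblast markers was 1225 to 1741 CPM against 1073 to 1197 CPM, and that of 6 red blood cell markers 2977 to 5195 CPM against 3711 to 4793 CPM. Their part in the members' changes was not tested. In bulk tissue a lower share of a cell type and less RNA per cell cannot be told apart.

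Of 47 tested further genes of glutathione and thioredoxin metabolism, 9 rose and 4 fell in the same comparison. Of all 14006 genes 23.7% were called there (12.2% higher and 11.4% lower). Those that rose were the mitochondrial glutathione transporter Slc25a39 (log2 fold change 0.85 ± 0.14), the extracellular superoxide dismutase Sod3 (0.82 ± 0.16), the mitochondrial glutaredoxin Glrx5 (0.80 ± 0.15), the Sod1 copper chaperone Ccs (0.66 ± 0.20), Ggct (0.63), the NADPH-producing Pgd (0.56) and Idh2 (0.44), Park7 (0.52) and Hagh (0.46). Those that fell were Chac2, which degrades glutathione (-1.04 ± 0.26), Nfe2l2, which encodes NRF2 itself (-0.72 ± 0.14), Esd (-0.64) and the thioredoxin-related Tmx1 (-0.48). The NRF2 target Nqo1 was at -0.22 (edgeR adjusted p = 0.215).

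The 250 bases before the RefSeq start of transcription (GRCm38.p6) were searched for the xenobiotic response element core GCGTG and the antioxidant response element pattern TGACNNNGC on both strands. Of the 52 members 45 had such a window in the RefSeq table used, and Gclc, Gsr, Gsta4, Gstt2, Hmox1, Prdx6 and Prdx6b had none. GCGTG occurred in 17 of the 45 members' windows (37.8%, against 28.2% of the windows of 27025 genes), and TGACNNNGC in 6 (13.3% against 10.1%). The members' windows were also richer in GC, with a median of 56% against 52% for all genes, and the part of GC in these shares was not tested. By the outcome in high-dose female ventricles, GCGTG was found in 6 of 11 members called higher, 3 of 8 called lower and 6 of 20 tested and not called, and TGACNNNGC in 2 of each. The windows below belong to the 3 members called higher and the 3 called lower with the smallest p among those that had a single listed start and a match. They show where the 2 motifs lie in promoters of genes that moved in opposite directions. Capitals mark matches, with CACGC being GCGTG read on the other strand.
Gpx1 (chr9:108338830-108339079, plus strand): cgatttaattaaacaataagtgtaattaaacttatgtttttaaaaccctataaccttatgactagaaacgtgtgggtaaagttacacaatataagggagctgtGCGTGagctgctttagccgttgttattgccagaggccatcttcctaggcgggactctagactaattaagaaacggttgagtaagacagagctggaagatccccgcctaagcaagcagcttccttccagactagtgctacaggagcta
Sod1 (chr16:90220512-90220761, plus strand): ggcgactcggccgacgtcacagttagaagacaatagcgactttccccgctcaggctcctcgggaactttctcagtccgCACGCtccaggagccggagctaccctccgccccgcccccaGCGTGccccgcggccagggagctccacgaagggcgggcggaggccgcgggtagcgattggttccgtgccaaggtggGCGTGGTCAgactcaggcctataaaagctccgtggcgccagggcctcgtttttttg
Prdx5 (chr19:6910107-6910356, minus strand): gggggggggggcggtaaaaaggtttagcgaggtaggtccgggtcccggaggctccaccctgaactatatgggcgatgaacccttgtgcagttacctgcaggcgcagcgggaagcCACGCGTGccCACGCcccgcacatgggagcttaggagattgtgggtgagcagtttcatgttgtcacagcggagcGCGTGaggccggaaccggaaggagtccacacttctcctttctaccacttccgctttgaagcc
Prdx3 (chr19:60874539-60874788, minus strand): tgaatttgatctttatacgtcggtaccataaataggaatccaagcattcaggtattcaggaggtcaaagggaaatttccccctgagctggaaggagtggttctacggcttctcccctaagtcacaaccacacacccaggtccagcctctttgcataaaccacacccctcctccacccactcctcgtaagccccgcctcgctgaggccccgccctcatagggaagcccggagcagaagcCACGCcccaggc
Gclm (chr3:122245307-122245556, plus strand): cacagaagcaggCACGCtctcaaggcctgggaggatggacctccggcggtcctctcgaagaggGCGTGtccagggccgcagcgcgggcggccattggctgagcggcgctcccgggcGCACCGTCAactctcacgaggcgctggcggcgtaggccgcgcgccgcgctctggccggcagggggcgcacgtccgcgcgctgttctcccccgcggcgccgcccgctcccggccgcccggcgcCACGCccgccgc
Prdx2 (chr8:84969372-84969621, plus strand): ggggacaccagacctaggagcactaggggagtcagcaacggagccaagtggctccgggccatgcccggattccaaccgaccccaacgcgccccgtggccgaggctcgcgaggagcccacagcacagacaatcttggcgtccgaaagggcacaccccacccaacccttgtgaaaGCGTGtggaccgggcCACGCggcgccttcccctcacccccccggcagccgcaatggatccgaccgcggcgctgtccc
Sod1 held 3 GCGTG matches, the last sharing bases with its single TGACNNNGC match (read as GCGTGGTCA), Prdx5 held 4, of which the first pair overlap in CACGCGTG, and Gpx1 held 1. Among the members that fell, Gclm held 3 GCGTG matches and 1 TGACNNNGC match, Prdx2 held 2 GCGTG matches and Prdx3 held 1. A match is a string of letters and not a measured binding site, and all 6 windows were chosen for holding one.

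Gpx1 and several other members had similar values in the low-dose and Ahr-/- ventricles of females, but none passed the test there. In low-dose females 0 of 45 members were called by edgeR (14 at an unadjusted p under 0.05, against 17.8% of all genes, and 8 called by DESeq2, all higher, against 3.62%), and 0.0% of 13966 genes were. Gpx1 was at 95.5, 114.2 and 94.95 CPM, above all 3 naive libraries (log2 fold change 1.16 ± 0.19, edgeR adjusted p = 0.125), and Gsta4 at 83.6, 82.5 and 53.3 CPM (0.86 ± 0.18, adjusted p = 0.140). In Ahr-/- females 0 members were called by edgeR (8 at an unadjusted p under 0.05, against 9.45% of all genes, and 1 by DESeq2, against 0.503%), where 0.0216% of all genes were. Gpx1 was at 74.8, 104.9 and 96.3 CPM (0.93 ± 0.19, edgeR adjusted p = 0.306) and Gsta4 at 53.7, 81.5 and 74.4 CPM (0.73 ± 0.19, adjusted p = 0.486). These comparisons and that of the high dose share the same 3 naive libraries. Without Ahr-/- library 39, 8 members were called in that group (7.11% of all genes), and without low-dose library 48, 4 were called in that one (1.37%). High dose and low dose compared directly gave 0 called members by edgeR and 0 by DESeq2 (5 at an unadjusted p under 0.05, against 4.48% of all genes). By edgeR none of the 13994 genes tested was called. The members' median log2 difference of high against low dose was -0.36, with Gpx7 at -1.49 ± 0.41 (edgeR adjusted p = 0.895).

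**Figure D2:**
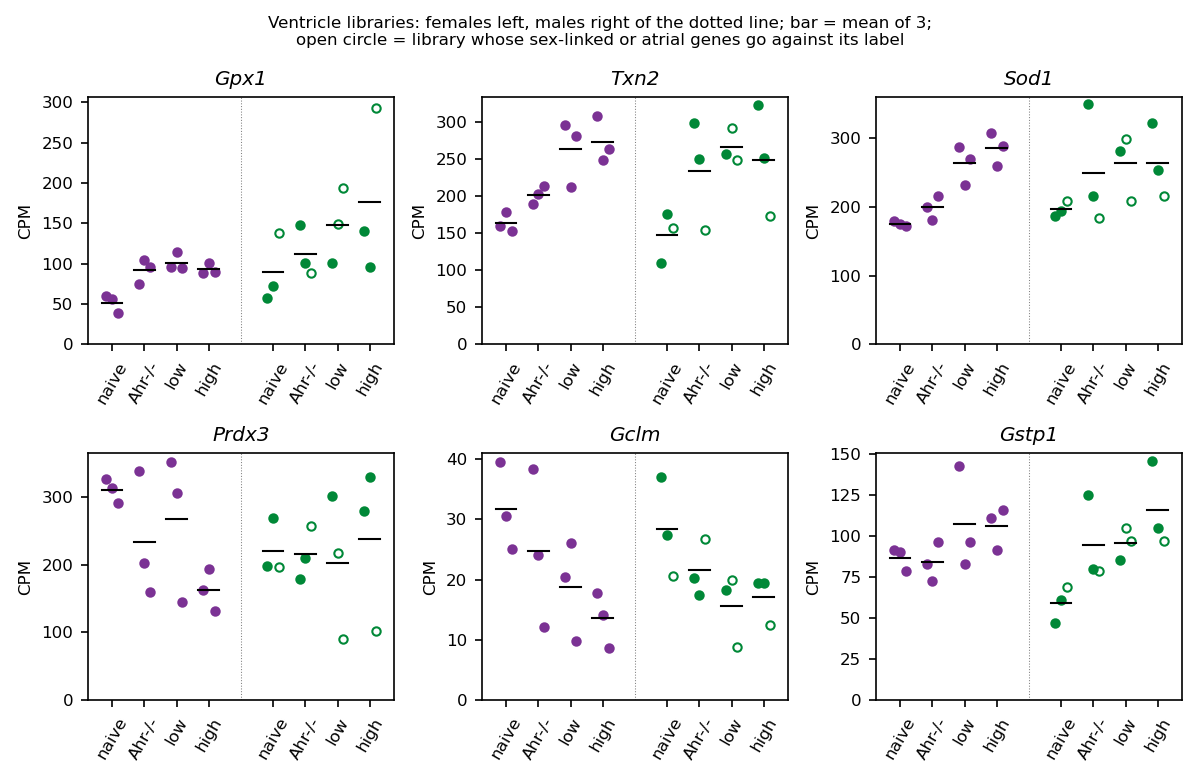
CPM (y axes) of Gpx1, Txn2, Sod1, Prdx3, Gclm and Gstp1 in each ventricular library, by sex and condition (x axis), with the mean of each group of 3 as a bar and libraries that went against their label as open circles. In females the 3 high-dose libraries of Gpx1, Txn2 and Sod1 lie above the 3 naive ones and those of Prdx3 and Gclm below them. In males the naive and high-dose libraries overlap for Gpx1, while the high-dose ones lie below for Gclm and above for Gstp1. Male libraries 53, 59, 65, 71 and 46 went against their label.

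In male ventricles 0 of 45 members were called by edgeR after the high dose, after the low dose or in Ahr-/- mice, and no gene was. At an unadjusted p under 0.05 there were 2 members after the high dose (9.19% of all genes), 13 after the low dose (13.9%) and 2 in Ahr-/- mice (4.23%), and DESeq2 called 0, 3 (2.05% of all genes) and 0. The transferase pair Gstp1 and Gstp2, the pi-class detoxifying enzymes, had the smallest p with separated libraries at both doses. Gstp1 was at 47.3, 61.5 and 69.0 CPM in naive males and at 145.8, 105.0 and 97.0 CPM after the high dose, without overlap (log2 fold change 1.00 ± 0.28, edgeR adjusted p = 0.525), and Gstp2 was 1.10 ± 0.26 higher (same adjusted p). The low dose gave 0.76 ± 0.20 for Gstp1 and 0.94 ± 0.22 for Gstp2 (edgeR adjusted p = 0.290 for both), and Ahr-/- 0.75 ± 0.28 and 0.86 ± 0.32 (adjusted p = 0.827 for both). Each male ventricular group held at least 1 library that went against its label. Without these libraries Gstp1 and Gstp2 were at 1.01 and 1.12 in Ahr-/- mice (edgeR adjusted p = 0.0777 and 0.0830). After the low dose they were at 0.64 and 0.67, from low-dose library 45 alone against naive libraries 33 and 34.

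Without those libraries, 2 naive and 2 high-dose male libraries remained, all of the first series, and 10 members were called, all higher, against 15.9% of all 13865 genes. These were Txn1, the cytosolic thioredoxin (log2 fold change 1.68 ± 0.34), Gstp2 (1.25), Gstp1 (1.25), Prdx5 (1.19), Txn2 (1.05), Prdx1 (0.95), Gpx1 (0.91), Txnrd2 (0.80), Prdx2 (0.79) and the microsomal transferase Mgst3 (0.79), with edgeR adjusted p from 0.0169 to 0.0458. Txn1 stood at 7.26 and 15.1 CPM in these naive and at 39.0 and 30.9 CPM in these high-dose libraries, and Prdx1 at 212.5 and 283.5 against 460.6 and 477.2 CPM. Gclm, at 37.0 and 27.5 against 19.4 and 19.5 CPM, was not called. Prdx1 and Prdx2 were thus higher in these male and lower in the female high-dose ventricles.

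The test of that difference, a sex by high-dose interaction over the ventricular libraries, called 0 members in all libraries by edgeR (2 at an unadjusted p under 0.05, against 4.53% of all genes, and 0 by DESeq2). By edgeR it called none of the 14756 genes tested. Without the libraries against their label it called 8 members, all with a lower response in females, against 8.03% of all genes: Txn1 (interaction -1.56 on the log2 scale), Prdx1 (-1.54), Prdx2 (-1.29), Prdx3 (-1.22), Gstm3 (-1.18), Mgst3 (-1.15), Prdx4 (-1.07) and Gstm1 (-0.97). Of the 7 peroxiredoxins, Prdx1 to Prdx4 were among these. With libraries 1 to 48 alone 4 were called (3.6% of all genes), and leaving out male high-dose library 65 alone 3 were called (3.23%).

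With both sexes in 1 fit and sex as a term, 11 of 45 ventricular members were called after the high dose, 9 higher and 2 lower (16.0% of all 14753 genes), and 10 after the low dose, all higher (10.8% of all genes). Called at both doses were Gpx1 (log2 fold change 1.00 ± 0.23 at high and 0.99 ± 0.23 at low dose), Txn2 (0.85 ± 0.20 and 0.89 ± 0.20), Prdx5 (0.93 ± 0.28 and 1.01 ± 0.28), Sod1 (0.66 ± 0.19 and 0.62 ± 0.19), Gstm5, Gstp1 and Gstp2. Gss (0.55), Gstm7 (0.59), Gclc (-0.58 ± 0.15, edgeR adjusted p = 0.0151) and Gclm (-0.89 ± 0.25, adjusted p = 0.0191) were called at the high dose, and Txn1 (0.84), Gstt2 (0.70) and Gstm2 (0.52) at the low dose, while the difference between the doses was not tested in this fit. In Ahr-/- ventricles 0 members were called by edgeR (7 at an unadjusted p under 0.05, against 13.0% of all genes, and 0 by DESeq2), where 0.0474% of all genes were. Without the libraries against their label, 18 members were called at the high dose (24.1% of all genes), 12 at the low dose (12.1%) and 5 in Ahr-/-, all higher (2.66%): Gpx1 (0.97), Gpx4 (0.80), Txn2 (0.66), Gsta4 (0.63) and Gstm5 (0.57). The calls also moved with GC content and length: after removal of the GC trend Gpx1 alone was called at the high dose (0.69, with 3.06% of all genes) and Gpx1 (0.74) and Gstm5 (0.69) at the low dose (1.4%), and after removal of the length trend 3 (8.57%) and 0 (1.53%) were called.

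In the atria the 12 comparisons with naive mice gave 0 called members by edgeR, and no gene at all was called in any of them. At an unadjusted p under 0.05 there were 0 to 12 members (1.6 to 17.6% of all genes), and DESeq2 called members in 3 of the 12. With both sexes in 1 fit, RA and LA also gave 0 called members for each condition by edgeR. Of all genes, at most 0.161% in RA and 0.103% in LA were called in these fits. At an unadjusted p under 0.05 there were 3 to 7 members in RA (8.37 to 11.0% of all genes) and 8 to 14 in LA (13.9 to 17.4%). DESeq2 called 1 member in RA (Ahr-/-, 0.612% of all genes) and 2 in LA (low dose, 1.66%). The members with separated libraries and the smallest p differed between comparisons. In the LA of low-dose females Prdx5 was at 235.0, 182.6 and 231.5 CPM against 96.9, 113.4 and 120.0 CPM in naive libraries (log2 fold change 1.10 ± 0.22, edgeR adjusted p = 0.153), and Txn2 was 0.92 ± 0.19 higher (adjusted p = 0.153). In the LA of high-dose males Gclm was at 13.5, 19.0 and 11.7 CPM against 42.3, 32.1 and 23.6 CPM (-1.08 ± 0.22, edgeR adjusted p = 0.369), and Gstp2 was at 1.05 ± 0.22. Without the 1 library of each of these groups that went against its label, Gclm was at -1.19 and Gstp2 at 1.03.

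Further atrial values rest on libraries against their labels. In the LA of Ahr-/- females Gstm6 was at -2.51 ± 0.69 and the omega-class transferase Gsto1 at 1.55 ± 0.46 (edgeR adjusted p = 0.359 for both), where 2 of the 3 Ahr-/- libraries had ventricular Myl4 levels, and without those 2 the values were -1.45 and 0.68. In the RA of Ahr-/- females Gpx1 was at 1.18 ± 0.32 and the microsomal transferase Mgst1 at 1.03 ± 0.34 (edgeR adjusted p = 0.817 for both), where 2 of the 3 naive libraries and 1 Ahr-/- library went against their label, and without them the values were 1.18 and 1.61. The RA of low-dose females, high-dose males and low-dose males each had Prdx6 (0.77, 0.52 and 0.47) and Txn2 (0.73, 0.43 and 0.43) as the members of smallest p with separated libraries, at edgeR adjusted p from 0.907 to 0.974. Without library 15, which carried lung markers, Prdx6 was at 0.48 and Txn2 at 0.96 in the low-dose females. Without the libraries against their label they were at 1.18 and 0.67. That fit set naive library 3 alone against low-dose libraries 15 and 16, so the library with lung markers was still in it. Over all 18 comparisons with naive mice the log2 fold changes of Gpx1 ran from 0.20 to 1.35, of Txn2 from 0.16 to 0.92, of Gstp1 from 0.04 to 1.00 and of Gstp2 from 0.06 to 1.10, although scaling by library size alone turned Gstp1 and Gstp2 to -0.05 and -0.04 in Ahr-/- female ventricles. The log2 fold changes of Sod1 (0.04 to 0.89), Gstm2 (0.01 to 0.56) and Gsto2 (0.03 to 0.96) were above 0 in all 18 as well. Those of Hmox1 (-0.73 to 0.99), Gclc (-0.60 to 0.78), Gclm (-1.08 to 0.23) and Txnrd1 (-0.47 to 0.06) lay on both sides of 0. How many of all genes stayed above 0 in all 18 was not counted. The 3 comparisons within a compartment and sex share their naive libraries, and the correlation of log2 fold change with GC was above 0 in all 18 (Spearman's rho 0.103 to 0.552, across genes).

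**Figure D3:**
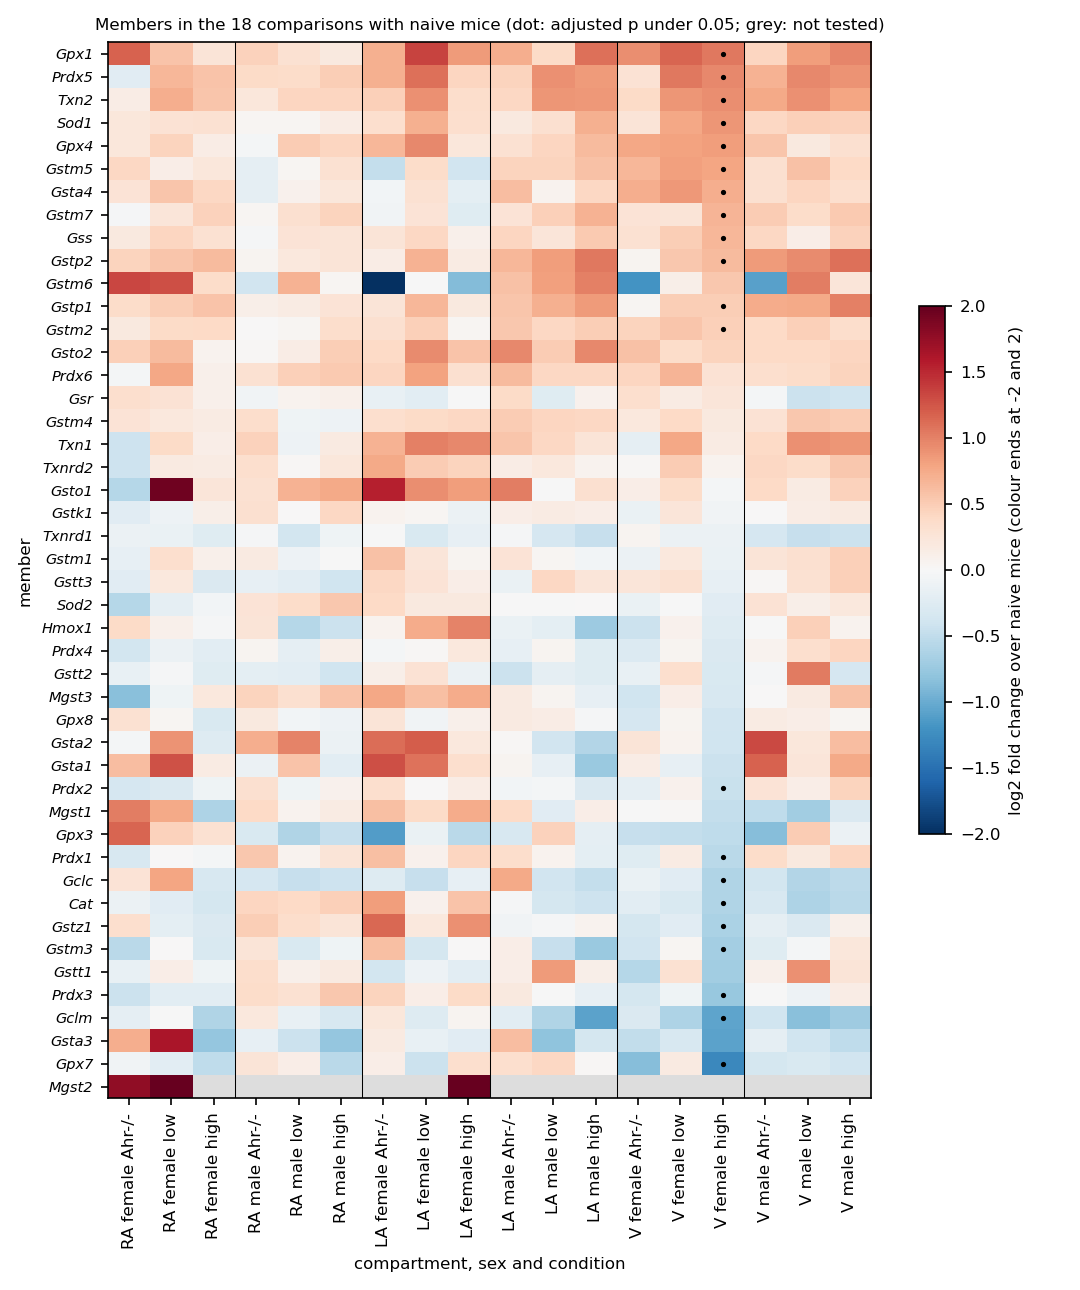
Heat map of log2 fold changes against naive mice (colour) for the members (rows) in 18 comparisons (columns, by compartment, sex and condition, n = 3 libraries per group), with called members marked. The marks stand in 1 column, the ventricles of high-dose females, and the values of Gpx1 run from 0.20 to 1.35 over the 18 columns.

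Members differed between atria and ventricles. Over all 72 libraries, with sex and condition in the fit, 20 of 46 tested members were called between RA and V, 6 higher and 14 lower in RA (31.8% of 15824 genes), and 10 between LA and V, 5 in each direction (18.9%). With library size as the only scaling the median of all genes moved by 0.22 and 0.17 (log2), and 15 members were called higher and 6 lower in RA (40.1% of all genes), and 10 higher and 3 lower in LA (25.8%), so the split between directions depends on the scaling. The members named here kept their direction under both scalings. RA and LA gave 0 called members by edgeR and 0 by DESeq2, 0 at an unadjusted p under 0.05, and 0.00632% of all genes.

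Gpx3, made for secretion, was the member most different between compartments. In the libraries whose markers matched their labels it ran from 1207 to 3915 CPM in RA (median 2200 CPM, n = 18), from 897 to 3498 CPM in LA (median 1721 CPM, n = 18) and from 114.0 to 390.4 CPM in V (median 163.1 CPM, n = 19), so that the atria did not overlap with the ventricles. Its log2 difference was 2.33 ± 0.34 for RA and 1.99 ± 0.33 for LA against V in all libraries (edgeR adjusted p = 2.6e-06 and 0.000399), and 3.25 ± 0.18 and 2.99 ± 0.17 without the 17 libraries against their label. Those libraries were picked by Myl4 and sex-linked genes and by no member. Gstm6 was also higher in the atria (1.46 ± 0.28 and 1.16 ± 0.28, edgeR adjusted p = 0.000116 and 0.00383), with medians of 7.50, 7.73 and 1.44 CPM in RA, LA and V libraries that matched their labels. The theta-class transferase Gstt1 (0.64 ± 0.16 and 0.42 ± 0.15), Hmox1 (0.55 ± 0.15 and 0.61 ± 0.15) and Gpx1 (0.52 ± 0.14 and 0.50 ± 0.14, edgeR adjusted p = 0.00405 and 0.0101) were higher in both atria.

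The mitochondrial members Sod2, Txnrd2 and Prdx3 were lower in both atria. Sod2 had medians of 587 CPM in RA, 634 CPM in LA and 979 CPM in V among libraries that matched their labels, with overlapping ranges (log2 difference -0.63 ± 0.12 for RA and -0.49 ± 0.13 for LA in all libraries, edgeR adjusted p = 0.000146 and 0.00536). Txnrd2 was at -0.58 ± 0.12 and -0.49 ± 0.12, Prdx3 at -0.56 ± 0.14 and -0.44 ± 0.14, and Prdx6, which also has phospholipase activity, at -0.55 ± 0.13 and -0.39 ± 0.13. Cat was lower in both as well (-0.45 ± 0.13 and -0.40 ± 0.13, edgeR adjusted p = 0.00804 and 0.0291), and Mgst3 (-0.68 ± 0.18) and Gsta2 (-0.73 ± 0.27) were lower in RA. Without the libraries against their label 30 members differed between RA and V (8 higher and 22 lower, with 53.2% of all genes) and 26 between LA and V (9 and 17, with 51.0%). In naive libraries alone 0 members were called for either atrium, and the share of all genes called there is not given here.

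**Figure D4:**
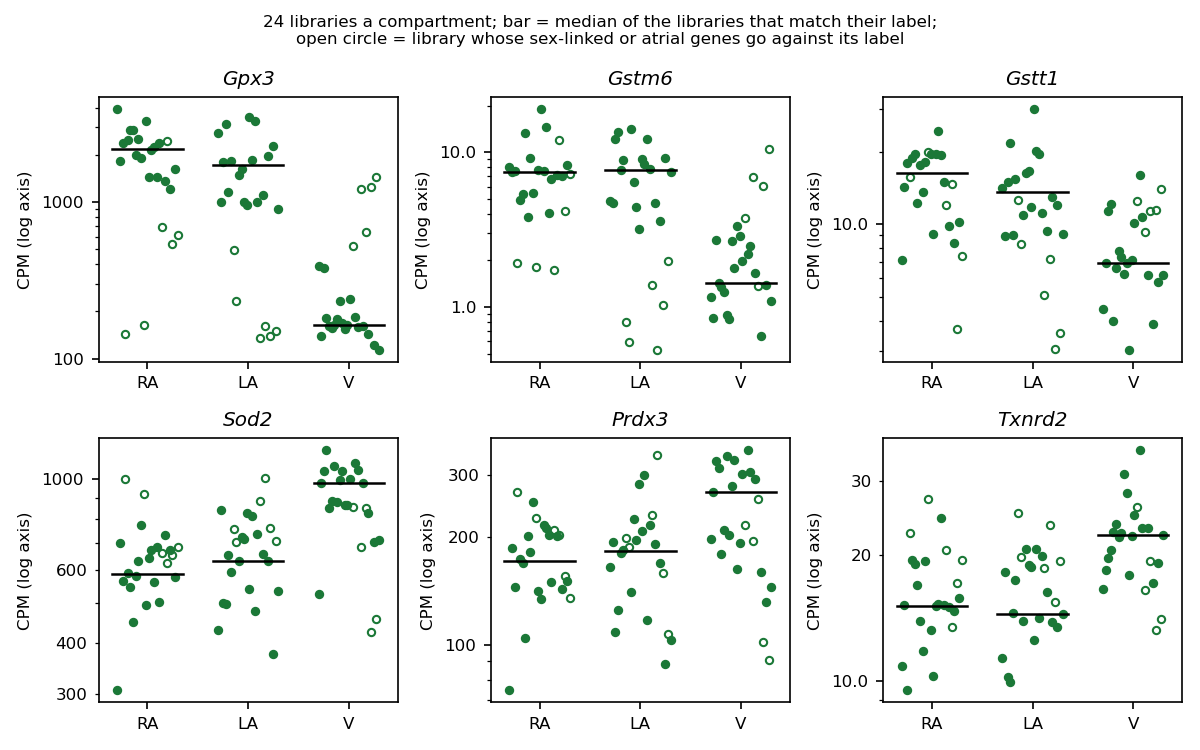
CPM (y axes, log scale) of Gpx3, Gstm6, Gstt1, Sod2, Prdx3 and Txnrd2 in all 72 libraries by labelled compartment (x axis), with libraries that went against their label as open circles and the median of the others as a bar. Among libraries that matched their labels Gpx3 lies at 897 to 3915 CPM in the atria and 114.0 to 390.4 CPM in the ventricles, while Sod2, Prdx3 and Txnrd2 are higher in the ventricles with overlapping ranges.

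Male and female libraries gave 0 called members among 47 tested by edgeR (4 at an unadjusted p under 0.05, against 5.68% of all genes, and 0 by DESeq2), where 0.349% of all 16056 genes were called. The smallest p belonged to Gstt2, with a male minus female log2 difference of -0.33 ± 0.11 (edgeR adjusted p = 0.267). This fit took sex as labelled, although the sex-linked genes went against the labelled sex in 8 of the 72 libraries. It also counted the 3 compartments of a heart as independent.

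The libraries with lung markers were high in several members. Library 15, of the RA of low-dose females, and library 21, of the LA of Ahr-/- males, carried summed levels of 4 lung markers of 2127 and 750.9 CPM, while no other library exceeded 71.9 CPM. In both, 9 members lay above the other 34 atrial libraries that matched their labels, and none lay below, while 957 of all 24237 genes (3.95%) lay above in the same way. Gpx2, the glutathione peroxidase of epithelia, was at 32.2 and 44.6 CPM against 0 to 2.06 CPM, and it was at 0 in 63 of the 72 libraries. Gsto1 was at 643.6 and 304.2 CPM against 16.0 to 109.8 CPM, and Gclc at 90.7 and 116.4 CPM against 18.5 to 51.6 CPM. Prdx6, an enzyme of lung surfactant turnover, was at 614.5 and 655.7 CPM against 157.1 to 337.8 CPM, and Gsta3 at 90.7 and 44.8 CPM against 3.60 to 28.9 CPM. Gsr, Gstm2, Gstp3 and Mgst2 made up the 9. Both libraries are in the fits above, and without them and the libraries against their label 34 members differed between RA and V (51.2% of all genes) and 28 between LA and V (50.6%).

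**Figure D5:**
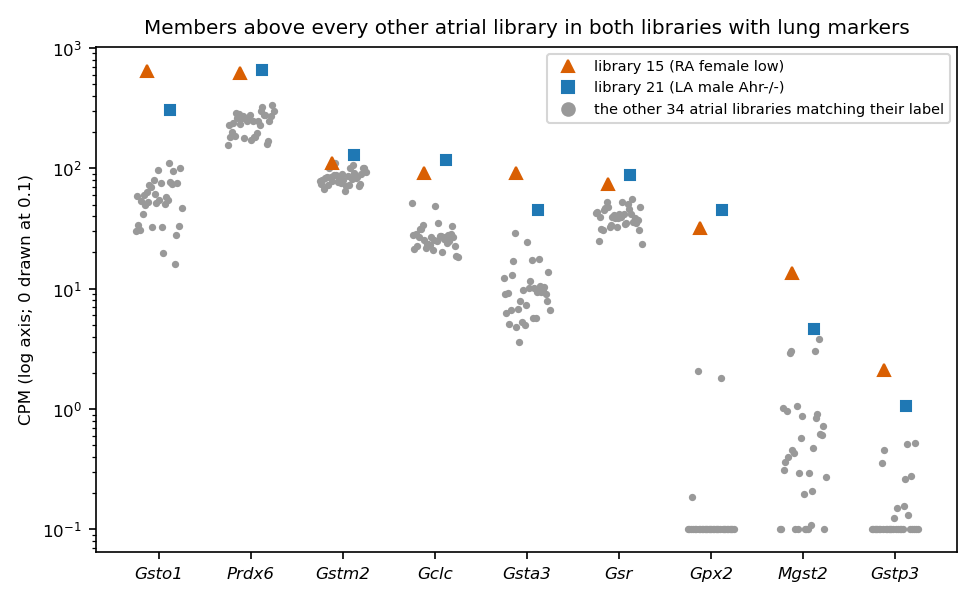
CPM (y axis, log scale) of the 9 members (x axis) in library 15 (RA of low-dose females), library 21 (LA of Ahr-/- males) and the other 34 atrial libraries that matched their labels. Both libraries lie above the other 34 for each of the 9 members, by most for Gpx2 at 32.2 and 44.6 CPM against at most 2.06 CPM.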

How the data were processed

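RNA of 72 mouse heart libraries was sequenced as polyA-selected, 50-cycle single reads. Per the labels and the study's methods, the authors converted base calls with CASAVA 1.8, aligned reads with TopHat to mm10 and deposited raw counts per gene, taken over coding regions with Bioconductor tools. The annotation release, the use of strand and the treatment of reads matching several genes are not given in the sources used here. Each count column carries a library number, matched to 1 sample. Genes without a RefSeq symbol (82) held 3.91% of counts and stayed in the fits.

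Library totals ran from 11873417 to 28789382 counts. Genes passed filterByExpr (minimum count 10, minimum total 15) in each comparison, were scaled by TMM and tested with edgeR 4.0.16 (quasi-likelihood, robust) under R 4.3.3, Benjamini-Hochberg adjusted over all tested genes and called at 0.05. CPM values are counts scaled to a library total of 1000000, and fold changes are TMM scaled. Each compartment and sex was compared with its own naive libraries, then with both sexes together, with a sex by dose interaction, and between compartments and sexes in all libraries (compartments of a heart are not independent, and the labels do not link them). DESeq2 1.42.0, other scalings, filters, library series, fits with all 4 groups, GC and length trends, and leaving out libraries were alternatives. The steps were tested on simulated data.

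Members, lists and tests were chosen with earlier results of these data known. Named were the 20 called members of smallest p in high-dose female ventricles (Prdx1, the 21st, was added after its value was seen) with uncalled members of 5 roles, 2 members with separated libraries in each other comparison with naive mice, up to 10 called members elsewhere, the 10 highest levels and 9 genes linked to NRF2 or AHR. The markers of the tissue and the lung, muscle, blood and fibroblast lists were fixed lists, and other members named were chosen after their values were seen.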

Additional observations from a re-analysis of the deposited data

Results flagged for a closer look

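In 4 cases every library of a comparison moved one way and every library of another comparison the opposite way, and none of these differences was tested. They are 4 of 1215 pairings of a tested member with 2 comparisons (0.329%), and over all genes 616 of 383258 such pairings (0.161%) did the same. Some of these groups held libraries that went against their label, and the values without such libraries follow each case. Gstm5, a mu-class transferase, was at a log2 fold change of -0.47 in the LA of Ahr-/- females and at 0.45 in the LA of Ahr-/- males, a difference of -0.92 (without such libraries -0.41 and 0.69, and with library 21, which carried lung markers, still in the male group), and at 0.66 in the ventricles of Ahr-/- females, a difference of -1.13 (without such libraries -0.41 and 0.66). Gclc, the catalytic subunit of glutamate-cysteine ligase, was at 0.27 in the RA and -0.26 in the LA of Ahr-/- females, a difference of 0.53 (without such libraries 0.17 and -0.19). In those LA 2 of the 3 Ahr-/- libraries, and in those RA 2 of the 3 naive and 1 Ahr-/- library, went against their label. The theta-class transferase Gstt2 was at -0.20 in the RA and 1.04 in the ventricles of low-dose males, a difference of -1.25 (without such libraries -0.20 and 0.83), where 2 of the 3 low-dose ventricular libraries and 1 of the naive ones went against their label.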

How the results depend on the processing

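No paired analysis was possible because each library number occurs once and no label ties libraries of different groups. Of the counts of called members, 322 under other settings and 117 with 1 library left out stayed within 1.5 times the reported count. Many of these were reported counts of 0 that stayed 0, since 17 of the 18 comparisons with naive mice had no called member. These totals therefore say little about how stable the calls were. The exceptions follow, and the cause was not tested unless stated. Shares of all genes called under these settings are not given here beyond those above. A count without its share does not show whether members moved more often than other genes. For high-dose female ventricles, 0 members passed an adjusted p of 0.0001, 8 passed with all 4 groups in 1 fit, 11 with libraries 1 to 48, and 10 to 22 with 1 library left out. For low-dose female ventricles the count became 1 without the filter, 1 with all 4 groups in 1 fit, 8 by DESeq2 and 0 to 4 with 1 library left out. For Ahr-/- female ventricles it was 1 by DESeq2 and 0 to 8 with 1 library left out. In male ventricles it was 10 for the high dose both with libraries 1 to 48 and without libraries against their label (the same libraries), and 3 for the low dose by DESeq2. In the LA, DESeq2 called 2 (Ahr-/- females), 7 (low-dose females) and 4 (high-dose males), libraries 1 to 48 gave 16 for Ahr-/- females, where both remaining Ahr-/- libraries went against their label, and leaving out 1 library gave 0 to 2. The interaction gave 4 with libraries 1 to 48, 8 without libraries against their label and 0 to 3 with 1 library left out (3 without male high-dose library 65). With both sexes, ventricles gave 5 for Ahr-/- and 18 for the high dose without libraries against their label. The high dose gave 0 at 0.0001, 1 with the GC trend removed and 3 with the length trend removed. The low dose gave 0 at 0.0001, 5 with library size scaling, 2 with the GC trend and 0 with the length trend removed. Atria of both sexes gave 1 (RA Ahr-/-) and 2 (LA low dose) by DESeq2, and 3 (LA Ahr-/-) and 1 (LA high dose) with libraries 1 to 48. RA against V gave 1 at 0.0001, 0 in naive libraries and 34 without libraries against their label or with lung markers. LA against V gave 0 at 0.0001, 0 in naive libraries, 25 with libraries 1 to 48, 26 without libraries against their label, 28 also without lung markers, 18 with the GC trend and 20 with the length trend removed. The GC, length and lung settings of fits over both sexes and compartments were chosen after seeing the data. RA of high-dose females could not be fitted without libraries against their label, since 1 library per group remained.

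In high-dose female ventricles Sod2 turned to 0.14 with the GC trend removed, and Txnrd2 to -0.10 with library size scaling, -0.18 with the GC trend removed and between -0.033 and 0.22 with 1 library left out, none of them called. Of the other named fold changes 1029 kept their direction and side of the threshold under other settings and 303 with 1 library left out, 171 and 38 lost a call, and 25 and 5 gained one. Leaving out a library leaves groups of 2, and the lone estimate of spread is then shared with the other group. Depth limits the members with few counts, such as Gpx7, Gstm6 and Mgst2.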
